A study of Mus musculus with 30 samples.

Results

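Transcripts that moved between the first and the fourth sampling point of an insulin time course were examined in mouse liver, whichever injection the mouse had received. The quantity measured was the shared change: the mean, gene by gene, of the change in the insulin arm (Insulin point 4 minus Insulin point 1) and the change in the saline arm (PBS point 4 minus PBS point 1), on the log2(FPKM + 1) scale. FPKM are counts of fragments scaled to the length of the transcript and the number of fragments mapped in the library. It rests on 12 of the 30 libraries, 3 in each of the groups Insulin point 4, Insulin point 1, PBS point 4 and PBS point 1. All came from the left liver lobe of C57BL/6J mice aged 10 weeks, which had been without food for 12 to 16 h. Human insulin (0.7 U/kg) or PBS (phosphate-buffered saline) was given into the peritoneum. The study took 5 points over 4 h and gave them numbers, not minutes, in its labels, and no uninjected liver was among the libraries analysed. Time of day, length of the fast, time since injection and time since handling therefore advance together from point 1 to point 4 in both arms, and they cannot be told apart.

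Liver cells carry a circadian clock. BMAL1 (the product of Arntl) and CLOCK switch on the Per, Cry, Nr1d1 and Nr1d2 genes, whose products in turn repress BMAL1 and CLOCK or the Arntl gene, so that Arntl and Per transcripts peak at different times of day. The clock drives output genes such as Dbp and Tef, which encode transcription factors, and liver enzymes. Glucocorticoids, released in a daily rhythm, under stress and in fasting, act through the glucocorticoid receptor on genes such as Fkbp5 and Per1, while fasting and feeding set the genes of glucose and lipid metabolism.

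The promoters of clock genes that changed are shown because known clock factors bind short motifs there. RefSeq sequences on GRCm38.p6 were available for 17 of the 21 genes called in the lists of core clock and clock output genes, each 300 bases long, from 250 bases before to 50 bases after a transcript start. The 4 motifs searched, on both strands, do not contain one another: the E-box CACGTG bound by CLOCK and BMAL1, the D-box TTATGTAA bound by DBP and TEF, the element TAGGTCA bound by ROR and REV-ERB receptors, and the CRE TGACGTCA bound by CREB. The 32851 promoters of this length in the table were counted singly, whereas a gene counted if any of its listed promoters held the motif. The shares are thus not in the same unit. The E-box stood in 7.15% of the promoters and in 3 of the 17 genes (Ciart, Per1 and Tef). For the D-box these figures were 0.938% and 1 gene (Per3), for the receptor element 2.61% and 1 gene (Arntl), and for the CRE 1.79% and 0 genes. Those of Ciart and Dbp are among the largest changes, Dbp having none of the 4 motifs, and those of Per1, Per3 and Arntl were picked because they hold one. They are given 5′ to 3′ with matches in capitals. A match describes letters in this window only.
Ciart, chr3:95882179-95882478, minus strand: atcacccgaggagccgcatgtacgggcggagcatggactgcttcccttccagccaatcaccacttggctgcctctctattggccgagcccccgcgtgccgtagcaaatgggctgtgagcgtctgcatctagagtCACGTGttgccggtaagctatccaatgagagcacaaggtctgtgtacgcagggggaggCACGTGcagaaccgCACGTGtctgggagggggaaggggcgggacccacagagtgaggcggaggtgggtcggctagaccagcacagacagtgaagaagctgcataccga
Per1, chr11:69098699-69098998, plus strand: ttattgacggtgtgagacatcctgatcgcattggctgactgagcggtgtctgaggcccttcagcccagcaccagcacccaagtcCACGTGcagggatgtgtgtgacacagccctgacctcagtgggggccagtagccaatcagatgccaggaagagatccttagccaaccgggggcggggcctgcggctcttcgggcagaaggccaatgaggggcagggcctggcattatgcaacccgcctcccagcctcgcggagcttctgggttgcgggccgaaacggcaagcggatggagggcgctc
Per3, chr4:151044616-151044915, minus strand: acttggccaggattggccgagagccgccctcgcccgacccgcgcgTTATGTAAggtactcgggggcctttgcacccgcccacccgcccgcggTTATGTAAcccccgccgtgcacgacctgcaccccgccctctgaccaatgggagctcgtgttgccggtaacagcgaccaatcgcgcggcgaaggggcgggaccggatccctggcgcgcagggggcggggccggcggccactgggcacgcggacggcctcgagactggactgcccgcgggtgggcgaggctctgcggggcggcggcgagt
Arntl, chr7:113207261-113207560, plus strand: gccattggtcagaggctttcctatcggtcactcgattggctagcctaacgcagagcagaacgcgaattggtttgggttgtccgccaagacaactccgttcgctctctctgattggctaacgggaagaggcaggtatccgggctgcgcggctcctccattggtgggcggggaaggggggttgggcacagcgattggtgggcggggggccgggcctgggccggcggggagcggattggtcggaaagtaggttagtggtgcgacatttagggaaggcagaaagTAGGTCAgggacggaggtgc
Dbp, chr7:45704997-45705296, plus strand: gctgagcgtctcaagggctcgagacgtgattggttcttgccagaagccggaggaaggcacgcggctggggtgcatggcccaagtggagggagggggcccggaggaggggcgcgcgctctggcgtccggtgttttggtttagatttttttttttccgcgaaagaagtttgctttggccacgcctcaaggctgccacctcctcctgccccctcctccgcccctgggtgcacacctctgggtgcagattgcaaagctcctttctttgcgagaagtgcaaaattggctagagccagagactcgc
The Ciart stretch holds 3 E-boxes and that of Per1, at the first of its 2 listed starts, holds 1. That of Per3 holds 2 D-boxes and that of Arntl, at the second of its 2 listed starts, holds 1 receptor element. The other listed starts of Per1 and Arntl hold none of the 4 motifs. The promoters of Usp2, Rgs16 and Upp2, also among the largest changes, hold none either and are not shown.

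The 12 libraries summed to between 613419 and 680501 FPKM, and 43.5% to 53% of that lay in the 50 most abundant genes. Read depth could not be recovered from these values. Replicates of a group correlated across genes at Pearson's r of 0.967 to 0.983. The hepatocyte markers summed to 47200 to 64600 FPKM in the 12 libraries. The 2 libraries of insulin replicate 1 stood apart in mitochondrial ribosomal RNA. Their mt-Rnr1 levels were 3660 FPKM at point 4 and 3040 FPKM at point 1, against 325 to 793 FPKM in the other 10 libraries. PBS replicate 1 of point 4 had a summed Kupffer cell marker level of 349 FPKM, against 116 to 202 FPKM in the other 11. Within an arm, libraries with the same replicate number shared a sequencing lane at points 4 and 1, so lane does not differ between the points, whereas the arms were run on different lanes.

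Many genes changed in the mean of both arms. Of 12877 genes with at least 1 FPKM in 3 of the 12 libraries, 1559 passed the test of the shared change (limma, Benjamini-Hochberg adjusted p under 0.05), which is 12.1% of those tested. At point 4, 941 were higher (7.31%) and 618 were lower (4.8%). The change reached 2-fold, a value of 1 on the log2 scale, for 104 of the higher and 44 of the lower genes. The median shared change of all genes tested was 0.02. Without both libraries of insulin replicate 1, 783 genes were higher and 496 lower. Scaling shifted the balance: with quantile normalization 935 genes were higher and 926 lower, and with median-ratio scaling 978 were higher and 839 lower.

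The mean of both arms can pass the test when mainly one arm moved, so each arm was also tested alone. In the insulin arm 710 genes were higher (5.51%) and 593 lower (4.61%) at point 4. In the PBS arm 284 were higher (2.21%) and 108 lower (0.839%), together 3.04%, against 10.1% in the insulin arm. Both tests called 156 genes higher (1.21%) and 70 lower (0.544%). These 226 genes, 1.76% of those tested, were 17.3% of the calls in the insulin arm and 57.6% of the calls in the PBS arm. Only 2 genes, Etnppl and Tgm1, were called in opposite directions. Among the 941 genes with a higher shared change, 427 were called in the insulin arm alone, 94 in the PBS arm alone and 264 in neither arm taken singly; among the 618 lower genes these numbers were 345, 30 and 173. The sign was the same in both arms for 1523 of the 1559 genes. Across all genes tested, the changes of the 2 arms correlated at Pearson's r of 0.345 and Spearman's rho of 0.269. In 440 of the higher genes and 285 of the lower ones, the 3 libraries of point 4 lay wholly above or wholly below those of point 1 in both arms, against 486 (3.77%) and 314 (2.44%) among all genes tested, together 6.21%. Single libraries moved the counts of each arm by over 1.5 times. The insulin arm's lower genes numbered 319 to 357 without any one of Insulin point 4 replicates 1 and 2 and Insulin point 1 replicates 2 and 3, and its higher genes 449 without Insulin point 4 replicate 2. In the PBS arm, 161 and 187 genes were higher without replicate 1 of points 1 and 4. Its lower genes numbered 63, 66 and 59 without PBS point 4 replicates 1, 2 and 3. Genes lower in both arms numbered 46 and 44 without replicate 2 of PBS points 1 and 4.

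**Figure D1:**
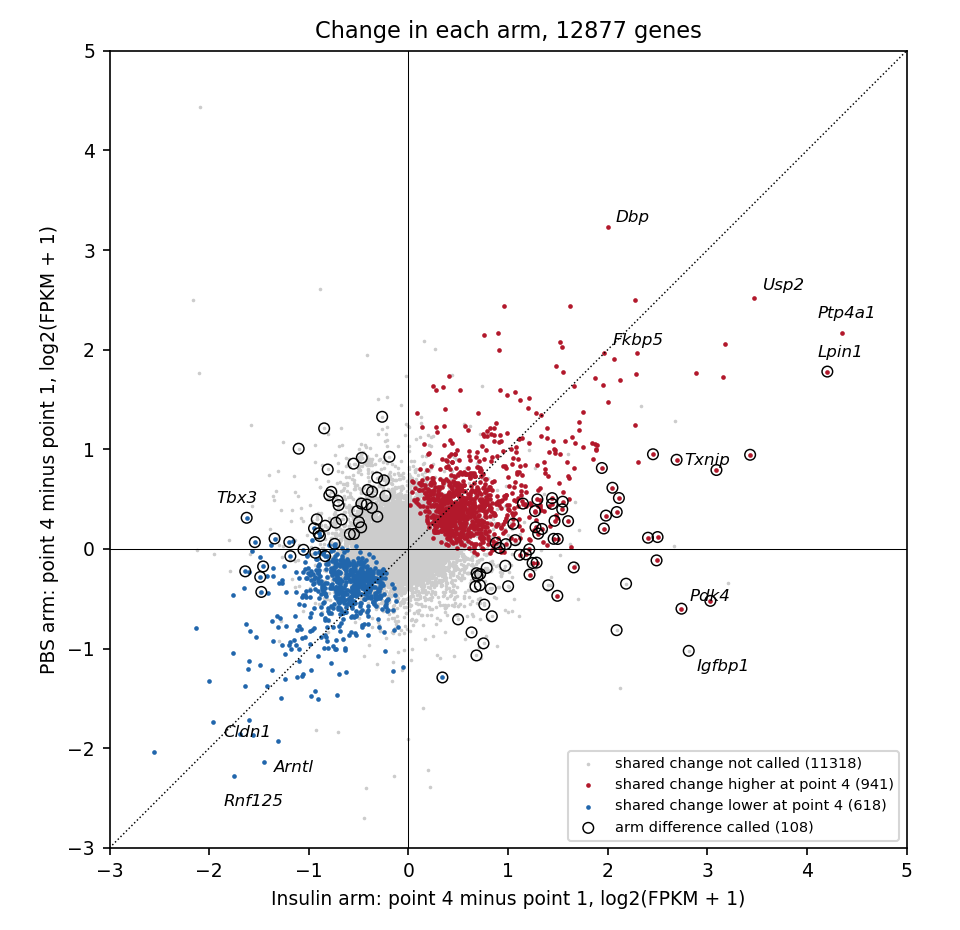
Change from point 1 to point 4 in the insulin arm (horizontal axis) and in the PBS arm (vertical axis), log2(FPKM + 1), for 12877 genes. Red points are the 941 genes and blue points the 618 genes called higher or lower at point 4 in the mean of both arms, black rings mark the 108 genes whose change differed between the arms, and the dotted line marks equal change; Fkbp5 lies on it, with 1.97 in both arms, and Igfbp1 and Pdk4 lie far to its right.

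The transcripts with the largest rise at point 4 included clock output genes and glucocorticoid receptor targets. By size of the shared change, the 12 highest genes whose libraries did not overlap in either arm included Ptp4a1, Lpin1, Usp2, Rgs16, Dbp, Ciart, Upp2, Maff, Chd9, Zbtb16 and Fkbp5. The 12 had changes of 3.26 to 1.97. The 12 lowest were Rnf125, Cldn1, Arntl, Clpx, Asap2, Selenbp2, Elovl3, Aqp8, Spon2, Pde9a, Bok and Cyp2c70, with changes of −2.02 to −1.39. The next genes just outside were Nrg4 and Wee1, both at 1.80, and Ppp1r3c at −1.33. Each of the genes named was also called in each arm alone, except Ptp4a1 and Spon2, called in the insulin arm only, and Elovl3, called in the PBS arm only.

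**Figure D2:**
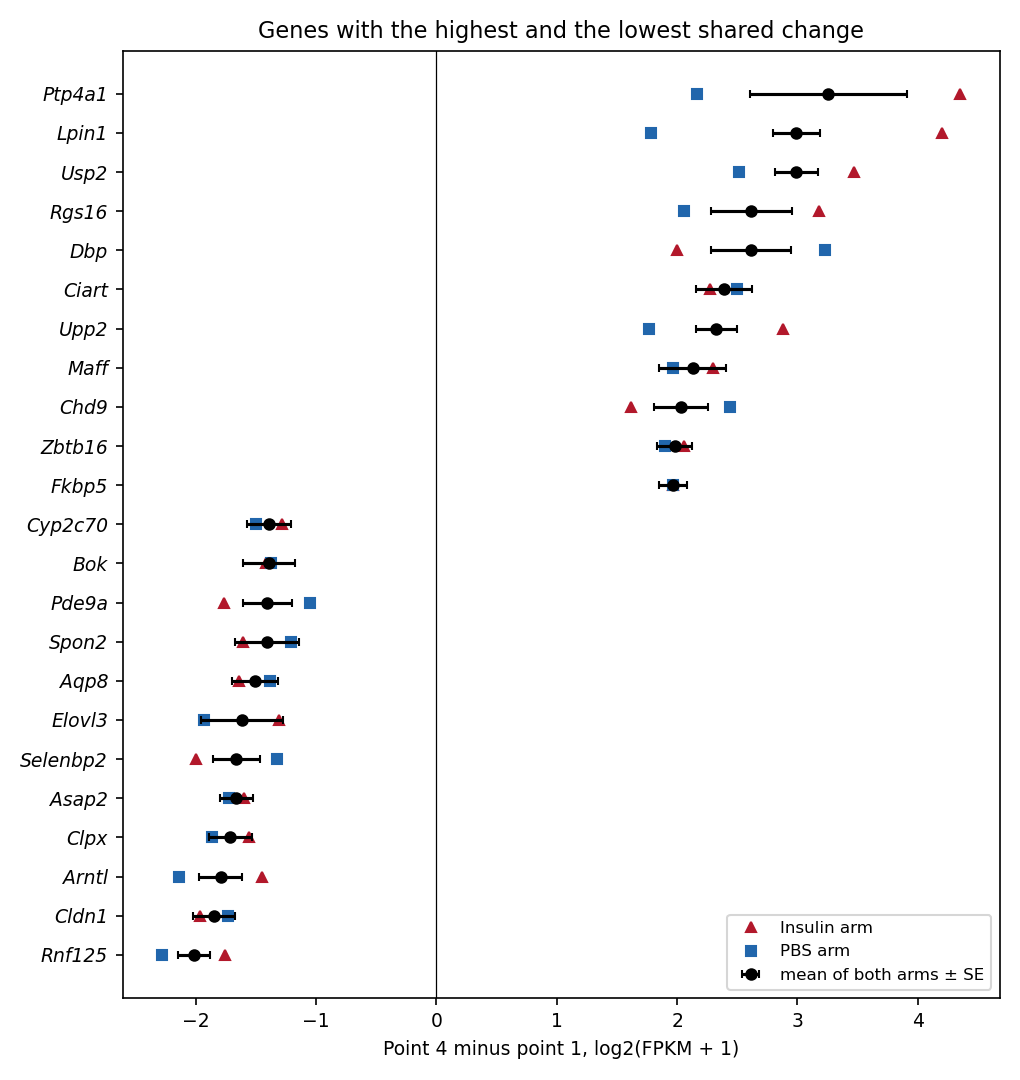
Change from point 1 to point 4, log2(FPKM + 1), of 11 of the 12 genes with the highest and the 12 with the lowest shared change. Black circles are the mean of both arms with its standard error, red triangles the insulin arm and blue squares the PBS arm; the values run from 3.26 for Ptp4a1 to −2.02 for Rnf125, and all genes shown have the same sign in both arms.

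Core clock transcripts changed in both directions. Of 18 genes on the list 16 passed the filter on low levels, and Npas2 and Bhlhe41, which reached at most 1.94 and 0.836 FPKM, did not. At point 4, 8 of the 16 rose and 1 fell, with a median shared change of 0.39. The shares among all genes tested were 7.31% higher and 4.8% lower. The 8 that rose were Ciart, Bhlhe40, Per2, Per3, Nr1d2, Per1, Cry2 and Rora, and the gene that fell was Arntl. Tested by arm, 9 were higher and 2 lower in the insulin arm, 4 were higher and 1 lower in the PBS arm, and 4 were higher in both. Of all genes tested, 5.51% were higher and 4.61% lower in the insulin arm, and 2.21% and 0.839% in the PBS arm. The counts were also 8 and 1 without insulin replicate 1. With a minimum mean of 5 FPKM, which removes Arntl, Per2 and Per3 among others, they were 5 and 0. With no filter on low values, which lets in Npas2 and Bhlhe41, 2 genes of the list were lower.

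Arntl (ENSMUSG00000055116, GRCm38 chr7:113207465-113314126, plus strand), which encodes BMAL1, had 0.994, 1.23 and 2.68 FPKM at Insulin point 4, against 5.64, 7.34 and 5.04 FPKM at Insulin point 1. It had 0.850, 0.725 and 0.431 FPKM at PBS point 4, against 5.39, 6.04 and 7.64 FPKM at PBS point 1. All 6 libraries of point 4 lay below all 6 of point 1. The shared change was −1.79 ± 0.18 (SE, adjusted p = 2.1e-07), with −1.45 in the insulin arm and −2.14 in the PBS arm. Clock, which encodes the partner of BMAL1, had a change of −0.36 ± 0.13 that did not pass (adjusted p = 0.067). It passed without PBS point 4 replicate 1 (adjusted p = 0.0462), with median-ratio scaling (adjusted p = 0.0334) and with quantile normalization (adjusted p = 0.0238), which makes 2 lower core clock genes.

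Several repressors of the clock rose in the mean of both arms, but Cry1, Nr1d1 and the D-box repressor Nfil3 did not pass. Of the core clock genes, 4 were called higher in both arms. Ciart (ENSMUSG00000038550, chr3:95878503-95882251, minus strand) represses CLOCK and BMAL1. It had 5.31, 4.67 and 9.06 FPKM at Insulin point 4, against no value, 0.977 and 0.603 FPKM at Insulin point 1. At PBS point 4 it had 10.7, 11.4 and 8.63 FPKM, against 0.488, 2.33 and 0.551 FPKM at PBS point 1. The shared change of Ciart, with the missing value set to 0, was 2.39 ± 0.23 (adjusted p = 1.2e-07). Per2, a core repressor, had 2.09, 2.33 and 2.1 FPKM at Insulin point 4, against 0.401, 0.728 and 0.696 FPKM at Insulin point 1. In the PBS arm Per2 had 2.64, 3.12 and 3.05 FPKM at point 4, against 1.06, 0.669 and 0.569 FPKM at point 1. No library of point 4 overlapped one of point 1 for Ciart or Per2, and both were called in each arm.

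Per3 rose by 1.03 ± 0.13 (adjusted p = 4.5e-06) and Per1 by 0.80 ± 0.11 (adjusted p = 2.1e-05). Per1 is also an immediate target of the glucocorticoid receptor and of CREB, and it was called in the insulin arm (1.04) but not in the PBS arm (0.56, adjusted p = 0.053). Cry2, another repressor, rose by 0.70 ± 0.14, and Bhlhe40, which encodes the repressor DEC1, by 1.66 ± 0.21 (adjusted p = 3.5e-06). Cry1 had a change of 0.36 ± 0.13 (adjusted p = 0.065). It passed without PBS point 4 replicate 3.

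The REV-ERB and ROR receptors act on the same elements of Arntl with opposite effect. Nr1d2 (REV-ERBβ) rose by 0.88 ± 0.13 (adjusted p = 4.2e-05), with means of 26.0 and 11.6 FPKM at Insulin points 4 and 1 and of 19.1 and 11.9 FPKM at PBS points 4 and 1. Nr1d1 (REV-ERBα) did not pass. Its libraries overlapped in both arms, with 6.37 to 14.2 FPKM at Insulin point 4, against 6.51 to 16.2 FPKM at Insulin point 1, and 12.8 to 17.7 FPKM at PBS point 4, against 5.81 to 13.7 FPKM at PBS point 1. Its shared change was 0.17 ± 0.24 (adjusted p = 0.73), and exons of Thra overlap it on the other strand. Rora rose by 0.42 ± 0.09. Csnk1d, Csnk1e and Nfil3, which encode kinases that act on PER proteins and a D-box repressor, had changes of −0.01, 0.09 and −0.18 and did not pass either.

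**Figure D3:**
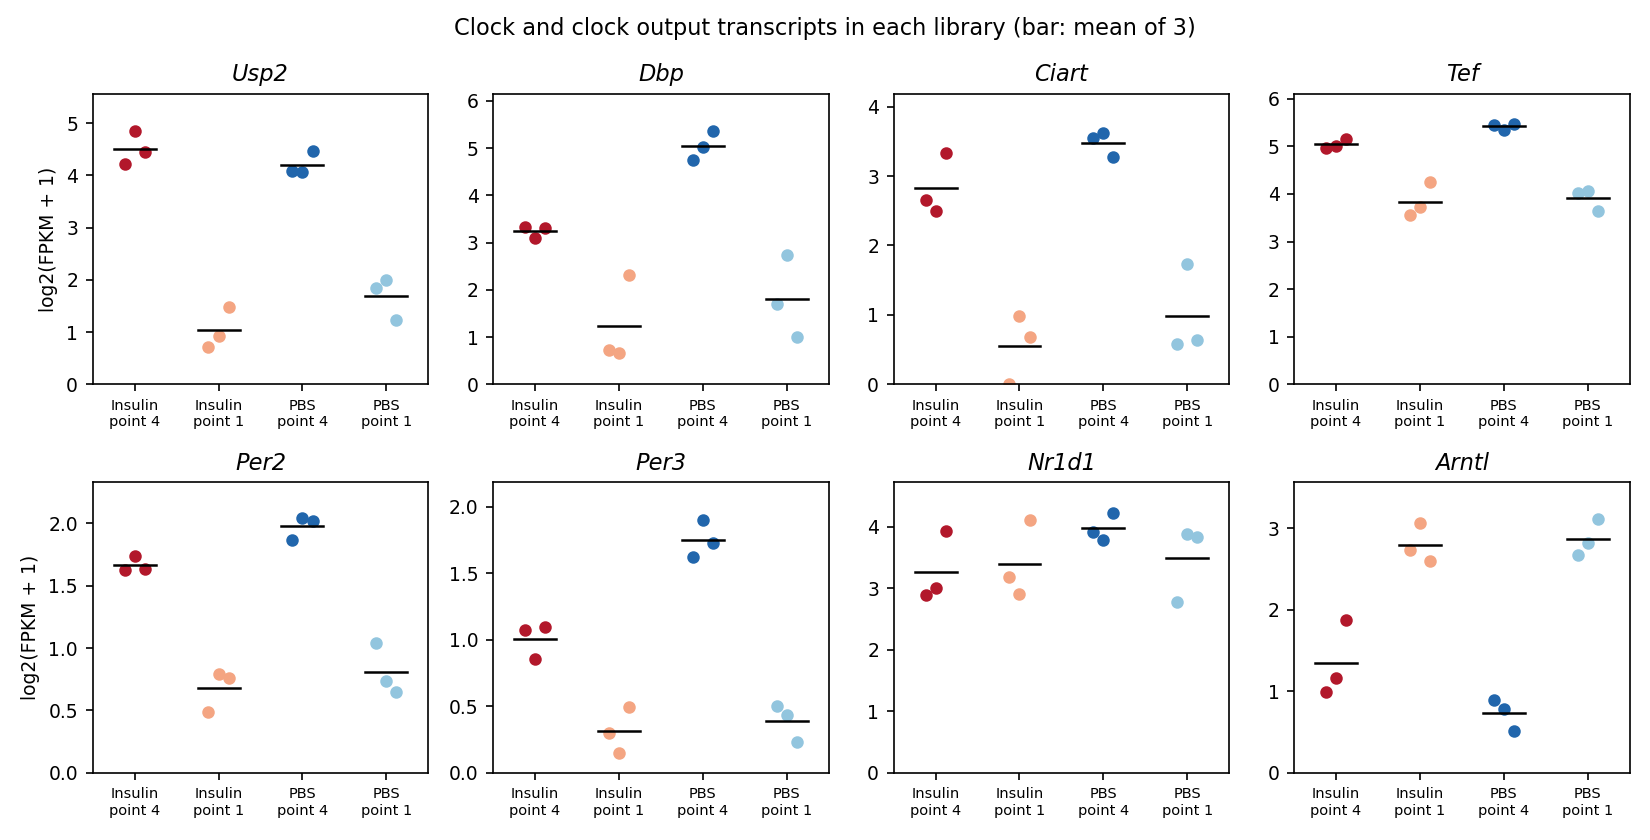
Level of 8 clock and clock output transcripts in each of the 12 libraries, log2(FPKM + 1), with a bar at the mean of 3. Red tones are the insulin arm and blue tones the PBS arm; Arntl falls and the others rise at point 4 without overlap in either arm, except Nr1d1, whose groups overlap.

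Clock output genes moved furthest of the lists with 10 or more genes tested. All 15 were tested, 11 rose and 1 fell, and the median shared change was 1.19. The shares among all genes tested were 7.31% higher and 4.8% lower. Tested by arm, 11 of the 15 were higher in the insulin arm and 9 in the PBS arm, with 9 called in both. Without insulin replicate 1 the list counted 12 higher, and Alas1, the first enzyme of haem synthesis, passed there.

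Usp2 (ENSMUSG00000032010, chr9:44067021-44095627, plus strand) encodes a deubiquitinating enzyme. It had 17.6, 27.9 and 20.9 FPKM at Insulin point 4, against 0.633, 0.897 and 1.79 FPKM at Insulin point 1. At PBS point 4 it had 15.9, 15.7 and 21.2 FPKM, against 2.58, 3.00 and 1.36 FPKM at PBS point 1. The lowest library of point 4 lay far above the highest of point 1, and the shared change was 2.99 ± 0.18 (adjusted p = 5.1e-11).

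Dbp (ENSMUSG00000059824, chr7:45705088-45710203, plus strand), a D-box transcription factor, differed in level between the arms at point 4. It had 9.02, 7.56 and 8.93 FPKM at Insulin point 4, against 0.657, 0.594 and 4.01 FPKM at Insulin point 1. It had 25.8, 31.4 and 40.2 FPKM at PBS point 4, against 2.26, 5.64 and 1.01 FPKM at PBS point 1. The shared change was 2.62 ± 0.33 (adjusted p = 5.0e-06), and the change in the insulin arm (2.00) minus that in the PBS arm (3.23) was −1.23, which did not pass the test of the arm difference (adjusted p = 0.48). Tef, of the same factor family, rose by 1.36 ± 0.13 (adjusted p = 1.2e-07), and Hlf, the third member, had 0.12 ± 0.13 and did not pass.

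Upp2, a uridine phosphorylase, was abundant and varied little among replicates at point 4. It had 321, 279 and 322 FPKM at Insulin point 4, against 42.6, 37.0 and 43.0 FPKM at Insulin point 1, and 216, 213 and 214 FPKM at PBS point 4, against 66.9, 85.9 and 41.7 FPKM at PBS point 1. Its shared change was 2.33 ± 0.17 (adjusted p = 1.3e-09). Rgs16, a regulator of G protein signalling, rose by 2.62 ± 0.34 (adjusted p = 5.8e-06). It had 20.4 to 44.4 FPKM at Insulin point 4, against 1.57 to 4.24 FPKM at Insulin point 1, and 17.8 to 36.4 FPKM at PBS point 4, against 2.68 to 9.60 FPKM at PBS point 1. Wee1, a kinase that restrains entry into mitosis, rose by 1.80 ± 0.18, and Nampt, the rate-limiting enzyme of NAD salvage, by 0.98 ± 0.12.

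Metabolic output enzymes followed with smaller changes. Por, the electron donor of microsomal cytochromes P450, had means of 226 and 99.6 FPKM at Insulin points 4 and 1 and of 283 and 107 FPKM at PBS points 4 and 1, a shared change of 1.31 ± 0.15 (adjusted p = 9.4e-07). Cyp2a5, a cytochrome P450, rose by 1.19 ± 0.23 and Gys2, the liver glycogen synthase, by 0.99 ± 0.16. Noct, a deadenylase-related gene known as nocturnin, rose by 0.82 ± 0.22 in the mean of both arms, but by 1.42 in the insulin arm and 0.23 in the PBS arm, where it did not pass. Avpr1a, the vasopressin receptor of liver, was the output gene that fell (−0.68 ± 0.16, adjusted p = 0.0058). Cyp7a1, the rate-limiting enzyme of bile acid synthesis, overlapped between points in the PBS arm and had 0.49 ± 0.42 (adjusted p = 0.54).

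Glucocorticoid receptor targets split into genes that rose alike in both arms and genes that rose mainly after insulin. Of 16 tested, 8 rose and 0 fell, with a median of 0.57, against 7.31% higher and 4.8% lower among all genes tested. The test of the arm difference called 7 of the 16, against 0.839% of all genes tested (108 genes). Fkbp5, Zbtb16 and Lpin1 were called higher in each arm. Tested by arm, 12 of the 16 passed in the insulin arm, with a median of 1.27, and 3 passed in the PBS arm, with a median of −0.05.

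Fkbp5 (ENSMUSG00000024222, chr17:28399094-28517527, minus strand), a co-chaperone of the glucocorticoid receptor, had 65.4, 71.9 and 87.7 FPKM at Insulin point 4, against 22.3, 20.1 and 13.6 FPKM at Insulin point 1. It had 99.0, 76.1 and 80.0 FPKM at PBS point 4, against 19.4, 24.0 and 19.4 FPKM at PBS point 1. The change was 1.97 in each arm, and the shared change of 1.97 ± 0.12 had an adjusted p of 3.7e-11. Zbtb16, which encodes the transcription factor PLZF, likewise rose by 2.06 in the insulin arm and 1.9 in the PBS arm (shared change 1.98 ± 0.15, adjusted p = 1.3e-09). Its levels were 9.47 to 13.8 FPKM at Insulin point 4, against 1.13 to 2.67 FPKM at Insulin point 1, and 10.1 to 12.4 FPKM at PBS point 4, against 1.70 to 2.69 FPKM at PBS point 1.

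Lpin1 (ENSMUSG00000020593, chr12:16535669-16610966, minus strand), a phosphatidate phosphatase and coactivator induced in fasting, rose in both arms but not to the same extent. It had 126, 98.3 and 147 FPKM at Insulin point 4, against 8.10, 5.44 and 4.09 FPKM at Insulin point 1. It had 79.5, 74.1 and 88.3 FPKM at PBS point 4, against 37.7, 21.9 and 14.0 FPKM at PBS point 1. The shared change was 2.99 ± 0.20 (adjusted p = 1.6e-10), made of 4.20 in the insulin arm and 1.78 in the PBS arm, and the difference of 2.42 passed its test (adjusted p = 0.0014). At point 1 its 3 insulin libraries lay below the 3 PBS libraries.

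The metallothioneins, which bind zinc and are induced by glucocorticoids, showed a like contrast. Mt2 had 783, 1049 and 889 FPKM at Insulin point 4, against 79.1, 133 and 53.4 FPKM at Insulin point 1. Mt2 had 885, 466 and 578 FPKM at PBS point 4, against 368, 506 and 178 FPKM at PBS point 1, and these groups overlapped. At point 1 all insulin libraries lay below all PBS libraries for Mt2, and at point 4 the arms overlapped. The shared change of Mt2 was 2.19 ± 0.29 (adjusted p = 9.3e-06), but 3.43 in the insulin arm and 0.94 in the PBS arm. The change in the PBS arm did not pass, and the arm difference was 2.48 (adjusted p = 0.038). Mt1, whose reads can be shared with Mt2, did the same, with 3.09 and 0.79. Among the metal transporters listed with them, Slc39a14, which imports zinc and iron, rose by 1.01 ± 0.10 (adjusted p = 1.4e-07). Slc30a10, a manganese exporter, fell by 1.05 on the log2 scale, with an SE of 0.16 (adjusted p = 6.0e-05). Slc30a1, a zinc exporter, rose by 0.43 ± 0.12, so that 4 of 5 tested genes of the zinc list rose and 1 fell. The shares among all genes tested were 7.31% higher and 4.8% lower. By arm, 3 of the 5 were higher and 1 lower in the insulin arm, and 1 was higher and 1 lower in the PBS arm.

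The genes that fell most included several with little scatter among replicates. Rnf125, an E3 ubiquitin ligase, had 33.7, 23.8 and 32.7 FPKM at Insulin point 4, against 102, 101 and 106 FPKM at Insulin point 1. It had 25.7, 26.6 and 15.9 FPKM at PBS point 4, against 99.4, 116 and 121 FPKM at PBS point 1. The shared change was −2.02 ± 0.13 (adjusted p = 2.1e-10). Cldn1 (ENSMUSG00000022512, chr16:26356642-26371841, minus strand), a tight junction protein, had 6.93, 6.46 and 6.49 FPKM at Insulin point 4, against 26.9, 26.5 and 33.2 FPKM at Insulin point 1. It had 10.4, 8.74 and 5.19 FPKM at PBS point 4, against 29.1, 28.0 and 28.0 FPKM at PBS point 1, and its shared change was −1.85 ± 0.17 (adjusted p = 6.9e-08).

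Clpx, the chaperone subunit of a mitochondrial protease, had 49.5 to 65.4 FPKM at Insulin point 4, against 144 to 192 FPKM at Insulin point 1. In the PBS arm Clpx had 42.5 to 55.7 FPKM at point 4, against 174 to 180 FPKM at point 1. The groups did not overlap in either arm, and the shared change was −1.71 ± 0.18 (adjusted p = 3.3e-07). Selenbp2, a selenium-binding protein, fell by 1.66 on the log2 scale, Aqp8, a water channel, by 1.51 and Asap2, which encodes an activator of Arf GTPases, by 1.66. Asap2 shares exon sequence with several other annotated genes. Elovl3, a fatty acid elongase under circadian control in mouse liver, had 64.0, 47.4 and 80.4 FPKM at Insulin point 4, against 172, 223 and 99.0 FPKM at Insulin point 1. Its values were 28.2, 70.0 and 35.9 FPKM at PBS point 4, against 143, 162 and 179 FPKM at PBS point 1. The shared change of Elovl3 was −1.62 ± 0.34 (adjusted p = 0.0021), the widest error among the 12. Cyp2c70, which makes muricholic acids in the mouse, fell by 1.39 ± 0.18 (adjusted p = 6.9e-06). Spon2, a matrix protein (−1.41 ± 0.27), Pde9a, a cyclic GMP phosphodiesterase (−1.41 ± 0.20), and Bok, a BCL2 family member (−1.40 ± 0.22), complete the 12.

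In the lipogenesis list 3 of 14 tested genes rose, among them Gpam and Acly, and 0 fell, with a median of 0.17. The shares among all genes tested were 7.31% higher and 4.8% lower. By arm, 3 genes of the list were higher in the insulin arm, 2 in the PBS arm and 2 in both. Gpam, which starts triglyceride synthesis, rose by 0.59 ± 0.10 with 0.53 and 0.64 in the insulin and PBS arms. Srebf1 and Fasn, the regulator and the synthase of lipogenesis, had 0.14 and 0.21 and did not pass.

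Sterol genes moved in part. Of 22 tested, 4 rose and 1 fell, with a median of 0.19, against 7.31% higher and 4.8% lower among all genes tested. By arm, 4 were higher in the insulin arm, 1 in the PBS arm and 1 in both, and 0 were lower in either arm. Stard4, a sterol carrier, rose by 0.90 ± 0.19, and Insig1, which holds back sterol synthesis, by 0.67 ± 0.21. Acat2, an acetyl-CoA acetyltransferase, fell by 0.39 on the log2 scale and did not pass without Insulin point 4 replicate 2, Insulin point 1 replicate 3 or PBS replicate 2 of either point. Without both libraries of insulin replicate 1 the list counted 2 higher genes. Insig2, a relative of Insig1 that is listed with the insulin receptor and FOXO targets, fell by 0.99 ± 0.18 (adjusted p = 5.2e-04), with means of 151 and 296 FPKM at Insulin points 4 and 1 and of 141 and 301 FPKM at PBS points 4 and 1.

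Genes of glucose output and fat burning were less clear. Among all genes tested 7.31% were higher and 4.8% lower in the shared change. In the list of fatty acid oxidation and ketogenesis 7 of 24 tested genes rose and 1 fell, with a median of 0.26. The count was 3 without any one of Insulin point 1 replicates 1 and 3, Insulin point 4 replicates 2 and 3, PBS point 1 replicates 1 and 2 or PBS point 4 replicate 3, and 11 without PBS point 1 replicate 3. In the insulin arm alone 2 genes of this list were higher and 1 lower. In the PBS arm 2 were higher and 0 lower, and 0 were called in both arms. Cpt1a, the gatekeeper of fatty acid uptake into mitochondria, had 0.05 and did not pass. In gluconeogenesis 4 of 12 rose (Ppargc1a, Slc37a4, Sds and Tat), and 2 did so without Insulin point 1 replicate 1, Insulin point 4 replicate 3 or PBS point 4 replicate 3. By arm, 4 of the 12 were higher in the insulin arm, and in the PBS arm 0 were higher and 1 was lower. Pck1 and G6pc, the enzymes at the control points of glucose synthesis, had shared changes of 0.10 and −0.39 and did not pass. Ppargc1a and Tat passed through the insulin arm, with changes of 1.66 and 1.49, against −0.19 and −0.47 in the PBS arm, and both differed between the arms. In the glycogen list Ppp1r3c, which brings a phosphatase to glycogen, fell by 1.33 on the log2 scale, with an SE of 0.21 (adjusted p = 9.4e-05), while Gys2 rose.

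Targets of the insulin receptor and FOXO changed in both directions. Of 15 tested, 3 rose (Txnip, Foxo3 and Pdk4) and 2 fell (Sesn3 and Insig2), with a median shared change of 0.20. The shares among all genes tested were 7.31% higher and 4.8% lower. The test of the arm difference called 6 of the 15, against 0.839% of all genes tested. In the insulin arm 6 were higher and 2 lower, with a median of 0.43. In the PBS arm 1 was higher and 3 were lower, with a median of −0.27. In both arms 1 was called higher and 2 lower. Txnip, which restrains glucose uptake, had 195, 180 and 180 FPKM at Insulin point 4, against 23.9, 31.7 and 28.3 FPKM at Insulin point 1. It had 62.7, 46.3 and 60.4 FPKM at PBS point 4, against 35.8, 25.1 and 29.0 FPKM at PBS point 1. The groups did not overlap in either arm, and the shared change was 1.79 ± 0.11 (adjusted p = 8.4e-11), while the difference between the arms was 1.80 (adjusted p = 1.0e-04). Sesn3, a stress-responsive FOXO target, fell by 0.54 in the insulin arm and 0.55 in the PBS arm.

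Some genes had a shared change only as the mean of a large rise in the insulin arm and no rise in the PBS arm. Pdk4, a kinase that closes pyruvate dehydrogenase, had 37.7, 39.5 and 22.8 FPKM at Insulin point 4, against 4.30, 4.77 and 3.10 FPKM at Insulin point 1. In the PBS arm Pdk4 had 2.80, 1.96 and 2.50 FPKM at point 4, against 4.71, 3.12 and 4.82 FPKM at point 1. Its shared change of 1.07 ± 0.18 passed (adjusted p = 2.0e-04), but the arms moved in opposite directions, by 2.74 and −0.60, and the change in the PBS arm did not pass. Igfbp1, a secreted binding protein that insulin represses, had means of 396 and 68.7 FPKM at Insulin points 4 and 1 and of 37.0 and 75.3 FPKM at PBS points 4 and 1. Its shared change of 0.89 ± 0.39 did not pass (adjusted p = 0.15). Among the 1559 genes called in the shared change, 43 higher and 17 lower ones also passed the test of the arm difference. Of the p53 and growth arrest list 5 of 12 rose (median 0.65), against 7.31% of all genes tested. By arm, 6 of the 12 were higher in the insulin arm and 0 in the PBS arm. Of the 5, 3 differed between the arms (Trp53inp1, Gadd45g and Plk3), each with a change in the PBS arm between −0.11 and 0.12.

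Heat shock and immediate early genes, which respond to stress, handling and body temperature, rose in part. Of 12 heat shock genes 5 rose and 0 fell, with a median of 0.29, against 7.31% higher and 4.8% lower among all genes tested. Tested by arm, 3 were higher in the insulin arm, 2 in the PBS arm and 1 in both. Hspb1, a small heat shock protein, had 5.37, 7.36 and 6.14 FPKM at Insulin point 4, against 4.83, 4.25 and 3.20 FPKM at Insulin point 1. It had 12.6, 20.9 and 12.4 FPKM at PBS point 4, against 3.58, 3.72 and 5.77 FPKM at PBS point 1, and its shared change was 1.06 ± 0.17 (adjusted p = 1.3e-04). Dnaja1, a co-chaperone, rose by 0.60 ± 0.11, Hsph1 by 0.71 ± 0.17, Hsp90aa1 by 0.65 ± 0.19 and Hspa8, the constitutive HSP70, by 0.52 ± 0.13. The strongly inducible Hspa1a and Hspa1b had 0.07 and −0.04 and did not pass. Cirbp and Rbm3, which rise in the cold, had −0.39 and 0.14 and did not pass.

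Of 15 immediate early genes tested on a list of 22, 6 rose (Klf10, Egr1, Myc, Junb, Ier3 and Btg2) and 0 fell, with a median of 0.58. The shares among all genes tested were 7.31% higher and 4.8% lower. Tested by arm, 11 were higher in the insulin arm, with a median of 1.01, and 3 in the PBS arm, with a median of 0.31. Klf10, a zinc finger factor that also follows the clock in mouse liver, rose by 1.56 ± 0.17 (adjusted p = 7.6e-07) and was called in each arm. Egr1 scattered widely, with 5.23, 1.18 and 13.8 FPKM at Insulin point 4, against 0.634, 0.897 and 0.330 FPKM at Insulin point 1, and 6.10, 5.45 and 8.44 FPKM at PBS point 4, against 0.909, 1.88 and 1.22 FPKM at PBS point 1. Its shared change was 1.79 ± 0.32 (adjusted p = 3.2e-04). With a minimum mean of 5 FPKM, the list counted 3 higher genes. Fos was not tested and reached at most 2.80 FPKM.

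The highest value of all belonged to Ptp4a1 (ENSMUSG00000026064, chr1:30940302-30949309, minus strand), a protein tyrosine phosphatase. It had 35.4, 33.4 and 19.6 FPKM at Insulin point 4, against 0.641, 0.316 and 0.406 FPKM at Insulin point 1, and 14.3, 11.3 and 2.26 FPKM at PBS point 4, against 0.795, 1.43 and 0.567 FPKM at PBS point 1. Its shared change was 3.26 ± 0.65 (adjusted p = 0.0012). A second gene ID with the same symbol (ENSMUSG00000117310) overlaps it on the same strand, so how reads were split between the IDs is uncertain. That ID was more abundant, with means of 52.8 and 16.5 FPKM at Insulin points 4 and 1 and of 34.8 and 20.7 FPKM at PBS points 4 and 1, and rose by 1.16 ± 0.16 (adjusted p = 1.0e-05). Exons of Dbp, Usp2, Rgs16, Arntl, Chd9, Tef and Txnip overlap other annotated genes on the opposite strand, and the strand setting of the counting is not given in the sources used here, so reads of such pairs may not be separated.

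In the lists of drug metabolism, ribosome biogenesis and autophagy, every gene called was higher at point 4, as in the heat shock and immediate early lists among others. Called higher in both arms were 2, 1 and 1 of their genes. Among all genes tested 7.31% were higher and 4.8% lower in the shared change. Drug metabolism counted 3 of 12 higher (Por, Cyp2a5 and Nr1i2, the pregnane X receptor, at 0.64 ± 0.08) and 0 lower. Ribosome biogenesis counted 6 of 21 higher, led by Gnl3 (0.84 ± 0.11, adjusted p = 8.9e-06), and 3 without PBS point 1 replicate 1. Autophagy counted 3 of 15 higher, with Ulk1, the initiating kinase, at 0.70 ± 0.12. Cyp8b1, an enzyme of bile acid synthesis that sets the share of cholic acid, fell by 0.91 on the log2 scale (adjusted p = 0.0014), and Hal, which breaks down histidine, by 1.14 (adjusted p = 1.5e-05). In each of the lists of ATF4, NF-kB, interferon and NRF2 targets 1 gene rose and 0 fell, of 9, 7, 14 and 10 tested. The interferon list had 2 genes lower in the insulin arm (median −0.36) and 2 higher in the PBS arm (median 0.61). The NF-kB list had 1 gene lower in the insulin arm (median 0.006) and 2 higher in the PBS arm (median 0.69). Removing any one of the 12 libraries moved at least 1 list count by over 1.5 times.

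**Figure D4:**
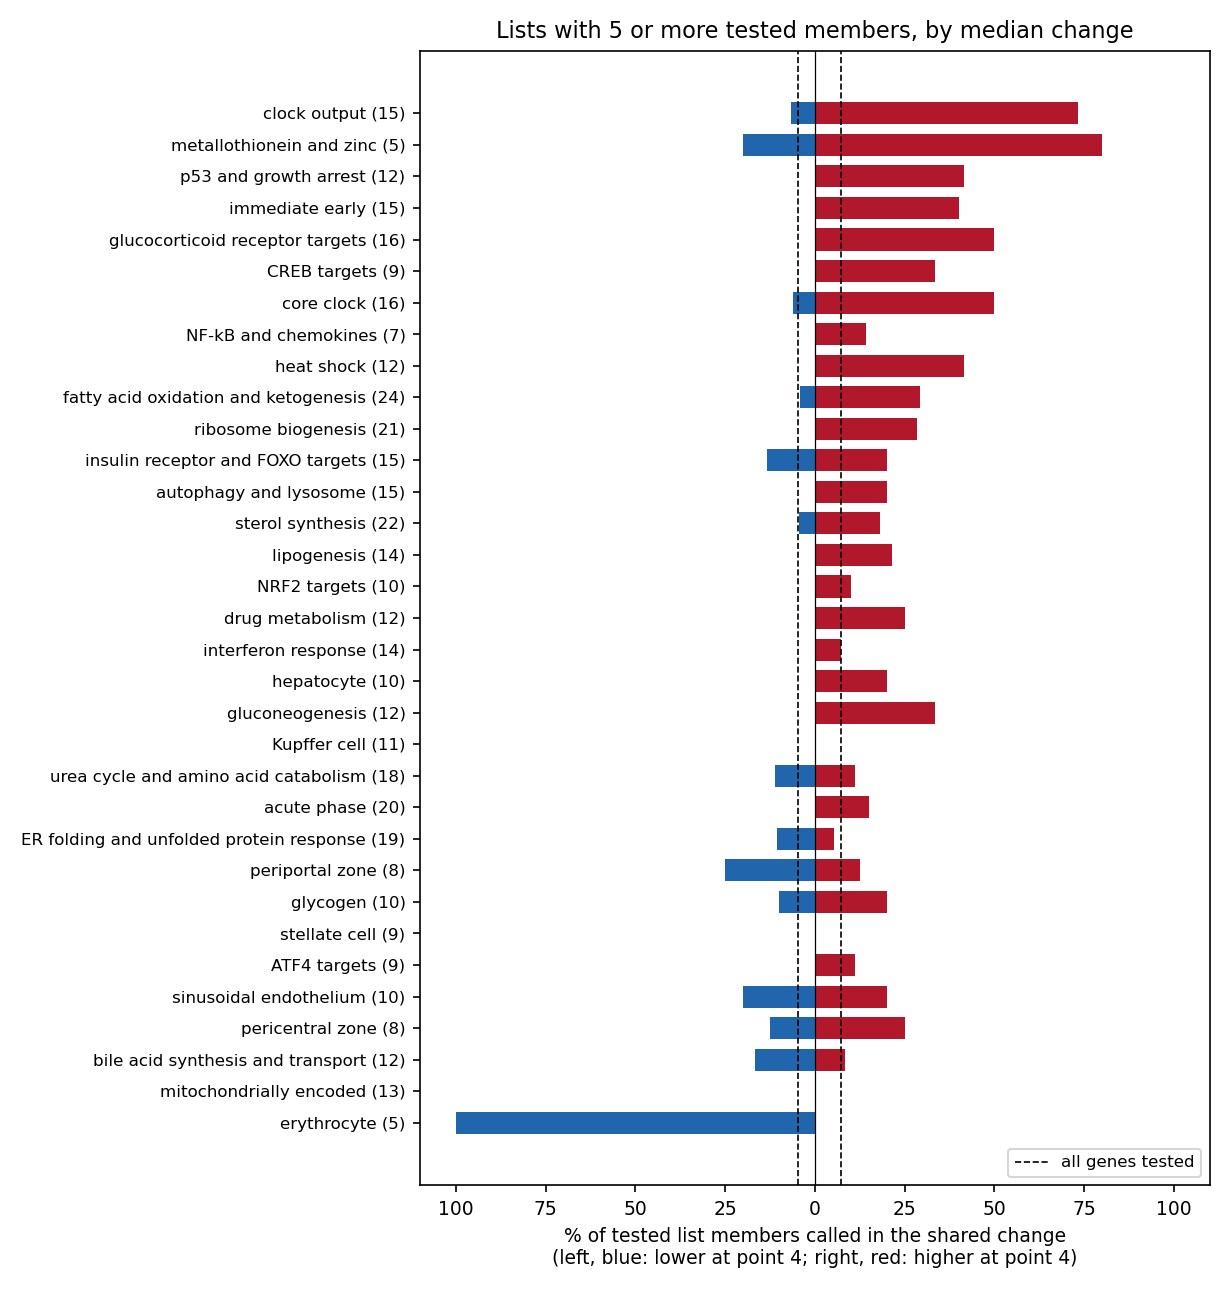
Share of the tested members of each list that were called higher (red, right) or lower (blue, left) in the shared change, in percent, with the number tested in brackets and the lists ordered by median change. Dashed lines mark the shares among all 12877 genes, 7.31% higher and 4.8% lower; clock output (11 of 15) and zinc genes (4 of 5) have the longest bars to the right, and the erythrocyte list (5 of 5) the longest to the left.

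Markers of other cells were followed because fewer cells of a type and less RNA per cell cannot be told apart in bulk liver. None of 11 Kupffer cell markers and none of 9 stellate cell markers passed. Of all genes tested, 7.31% were higher and 4.8% lower in the shared change. The erythrocyte list was lower at point 4 for 5 of 5 genes tested, with a median of −0.87. Its summed level was 228 to 394 FPKM at Insulin point 4, against 409 to 757 FPKM at Insulin point 1, and 246 to 356 FPKM at PBS point 4, against 375 to 960 FPKM at PBS point 1. By arm, 2 of the 5 erythrocyte genes were called lower in the insulin arm and 0 in the PBS arm. In the shared change Hbb-bs, a beta globin gene, fell by 1.05 on the log2 scale (adjusted p = 0.0052). The alpha globin genes Hba-a1 and Hba-a2 are near-identical copies, and so are the beta globin genes Hbb-bs and Hbb-bt. The list also holds Alas2, which is not a globin gene. The count in the shared change was 3 without Insulin point 1 replicate 1 or Insulin point 4 replicate 2. It was 2 without PBS point 1 replicate 2, without both libraries of insulin replicate 1, or with only the 12 libraries fitted. What part residual blood has in the other changes was not tested. Among 10 sinusoidal endothelium markers 2 rose, Lyve1 (1.03 ± 0.12) and Pecam1, and 2 fell, Fcgr2b and Kdr; without PBS point 4 replicate 1 Pecam1 did not pass, and without Insulin point 4 replicate 1 or PBS point 4 replicate 2 Kdr did not. S100a9, a neutrophil marker, passed at 0.0445, with values of 0 to 2.98 FPKM, and lost the call without any one of 8 of the 12 libraries. Lymphocyte markers summed to at most 4.13 FPKM. None of the 13 mitochondrially encoded genes and none of 4 ribosomal and nuclear RNAs passed.

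The 5 sampling points place the change in the course of the experiment. Mean Arntl in the insulin arm was 6.00, 2.59, 1.41, 1.64 and 2.59 FPKM at points 1 to 5, and in the PBS arm 6.36, 3.32, 1.54, 0.669 and 1.40 FPKM. Rnf125 in the insulin arm averaged 103, 45.1, 26.1, 30.1 and 49.2 FPKM, and in the PBS arm 112, 43.5, 25.1, 22.8 and 29.9 FPKM. Both transcripts were lower at point 2 than at point 1 and lowest at point 3 or 4. Usp2 had its highest mean at point 3 in both arms. Lpin1 in the insulin arm averaged 5.88, 50.2, 98.0, 124 and 181 FPKM at points 1 to 5, and in the PBS arm 24.6, 50.4, 110, 80.6 and 38.9 FPKM, so that its highest mean was at point 5 in the insulin arm and at point 3 in the PBS arm. These descriptions share the libraries of points 1 and 4 with the test above.

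**Figure D5:**
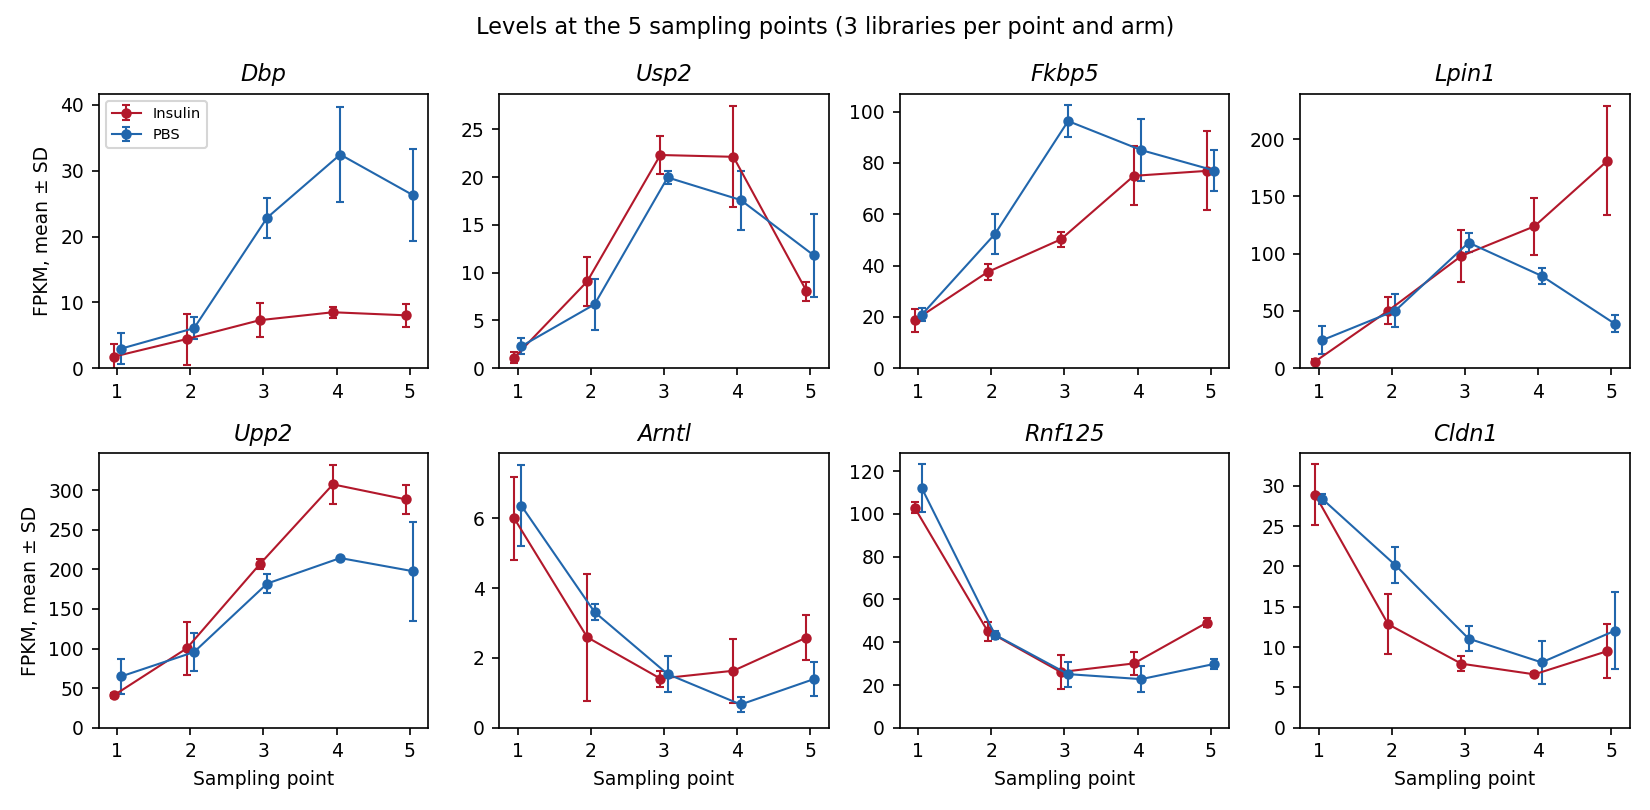
Level of 8 transcripts at sampling points 1 to 5, FPKM, as mean and SD of 3 libraries, in the insulin arm (red) and the PBS arm (blue). Dbp, Usp2, Fkbp5, Lpin1 and Upp2 are higher and Arntl, Rnf125 and Cldn1 lower at point 4 than at point 1 in both arms, and Lpin1 reaches 181 FPKM at point 5 in the insulin arm, against 38.9 FPKM in the PBS arm.

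The same quantity was taken between points 2 and 5, from 12 libraries that the comparison of points 4 and 1 did not use, although all 30 libraries share one estimate of the spread. This interval was chosen after seeing the data. The mean of both arms' change from point 2 to point 5 called 400 genes higher (3.11%) and 419 lower (3.25%) at point 5. Of the 941 genes higher at point 4, 155 were also higher at point 5 (16.5% of the first list and 38.8% of the second) and 46 were lower (4.89% and 11%). Of the 618 lower genes, 105 were also lower (17% and 25.1%) and 9 were higher (1.46% and 2.25%). Among the 12 genes with the largest fall, all but Rnf125, Arntl and Bok fell in this interval too, Spon2 by 1.40 and Elovl3 by 1.74 on the log2 scale. Rnf125 had −0.20 ± 0.13, Arntl −0.39 ± 0.18 and Bok −0.53 ± 0.22, and they did not pass. Among the 12 with the largest rise, Dbp rose by 1.49 ± 0.33, Upp2 by 1.29 ± 0.17, Chd9, a chromatin remodeller, by 1.96 ± 0.22, Fkbp5 by 0.78 ± 0.12 and Lpin1 by 0.74 ± 0.20. Zbtb16 fell between points 2 and 5, with −0.55 ± 0.15. Ptp4a1, Usp2, Rgs16, Ciart and Maff did not pass.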

How the data were processed

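RNA of mouse liver was sequenced from poly(A)-selected, directional libraries, per the labels' protocols. The authors deposited FPKM values per gene. HISAT2 2.1.0, SAMtools 1.9 and StringTie 2.0.3 are named, with GRCm38 (mm10), per the submitters' processing notes. Which annotation and strand setting they used is not given in the sources used here. Empty cells were read as 0 FPKM. Depth per library is unknown, since low values did not resolve into whole reads, so no count test was run.

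Values were taken as log2(FPKM + 1), kept for genes with at least 1 FPKM in 3 of the 12 libraries, and fitted with limma 3.58.1 (R 4.3.3) with an intensity trend over all 30 libraries in 10 groups. The contrasts were the change from point 1 to point 4 in each arm, their mean and their difference. P-values were adjusted by Benjamini-Hochberg over all 12877 genes, with a threshold of 0.05. The labels call the 3 replicates of a group biological. Fold changes on this scale understate those of low genes.

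Named genes were the 12 highest and 12 lowest called genes with groups apart in both arms, up to 4 called genes from each of 41 lists, tested clock and clock output genes, and the 4 highest and 4 lowest of the arm difference. Lpin1, Rgs16, Igfbp1 and Pdk4 were added by name, and other genes named were picked after their values were seen. The comparison and the lists were chosen with earlier results of these data known. Positions are from GENCODE M21 on GRCm38, where 12870 of the 12877 gene IDs matched. A few genes chosen in this way are left out of the text. Alternatives covered the pseudocount, filters, scaling, replicate blocks, the libraries fitted and leaving out each library.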

Additional observations from a re-analysis of the deposited data

Results flagged for a closer look

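The change from point 1 to point 4 differed between the insulin arm and the PBS arm for 108 genes (limma, adjusted p under 0.05 for the difference of the changes). All values here are the change in the insulin arm minus that in the PBS arm, on the log2(FPKM + 1) scale, from 3 libraries in each of 4 groups. Among stress and growth arrest genes the difference was 3.55 for Ddit4, 2.90 for Cdkn1a, 2.60 for Trp53inp1, 2.38 for Gadd45g and 2.29 for Plk3. Among genes of fasting metabolism it was 3.84 for Igfbp1, 3.34 for Pdk4, 2.42 for Lpin1, 1.96 for Tat, 1.84 for Ppargc1a and 1.80 for Txnip. The metallothioneins Mt2 and Mt1 had 2.48 and 2.30, and Herpud1, an ER stress gene, had 1.60. Lower in the insulin arm were Cxcl10, an interferon-induced chemokine, with −2.11, Osgin1 with −2.06, the transcription factor gene Tbx3 with −1.94 and Ifi47, an interferon-induced GTPase, with −1.61.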

How the results depend on the processing

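Of 110 pairs of a count and an alternative that left out no single library, 90 stayed within 1.5 times the value reported. With no filter, 60 genes differed between the arms. With a minimum mean of 5 FPKM, which tests fewer genes, the shared change called 967 genes (587 higher, 380 lower) and the insulin arm 445 higher and 355 lower. Median-ratio scaling gave 183 lower genes in the PBS arm. Quantile normalization gave 216, with 119 lower in both arms and 164 differing between the arms. The cause of these shifts was not tested. With only the 12 libraries fitted, which leaves fewer samples for the spread, the insulin arm had 360 lower genes, the PBS arm 166 higher and 64 lower, both arms 98 higher and 46 lower, and 31 genes differed between the arms. Without both libraries of insulin replicate 1, an alternative added after seeing the data, the insulin arm had 456 higher and 327 lower genes, and 64 differed. Leaving out each library in turn gave 1224 to 1540 genes for the shared change (737 to 1020 higher, 469 to 728 lower), 449 to 740 higher and 319 to 752 lower in the insulin arm, 161 to 308 higher and 59 to 114 lower in the PBS arm, 114 to 156 higher and 44 to 73 lower in both arms, and 57 to 180 for the arm difference. Of 114 called named genes, 88 kept the call in every alternative that gave a value and 26 lost it in at least 1. Signs reversed only for changes of uncalled genes. Leaving out single libraries gave shared changes of −0.235 to 0.124 for Cxcl10, −0.0714 to 0.0431 for Csnk1d, −0.0129 to 0.368 for Osgin1 and −0.0070 to 0.351 for Nr1d1. Without both libraries of insulin replicate 1, Cxcl10 had 0.0914 and Csnk1d 0.0438. Unknown depth limits low genes most.

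The deviations of same-numbered libraries of points 4 and 1 correlated across genes at Pearson's r of −0.1 to 0.17, highest for insulin replicate 1, and the numbers were not taken as pairs. With the replicate block as a fixed term 1823 genes were called in the shared change, and as a random effect 1895, with 168 differing between the arms, and Clock (adjusted p = 0.0476) and Cry1 (adjusted p = 0.0453) passed.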
